A study of Mus musculus with 11 samples.

Results

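The genes described here are the ligands Igf1 and Igf2, the receptors Igf1r and Igf2r, and the binding proteins Igfbp2, Igfbp3, Igfbp4, Igfbp5, Igfbp6 and Igfbp7. They were taken by name, as every non-control probe whose accession maps to 1 of these 10 mouse genes. This gave 10 of the 18931 named genes measured and 14 probes of 55681, and all 14 were among the 47997 probes bright enough to be tested. Igf1 has 4 of these probes and Igfbp2 has 2. For each gene the brightest probe was the main one.

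Insulin-like growth factors are secreted peptides that drive growth and survival of many tissues, the developing inner ear among them. They signal through the tyrosine kinase receptor Igf1r, whereas Igf2r has no kinase, carries Igf2 to the lysosome for breakdown and also sorts lysosomal enzymes. The binding proteins hold the ligands in the extracellular fluid and can either limit or prolong their action, and proteases that cut the binding proteins free the ligand.

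Gene expression was measured with single-colour Agilent mouse arrays in 3 groups. Otospheres (OS, 6 arrays) are floating spheres grown from cells of the cochlear sensory epithelium of 1-day-old ICR mice, and each preparation pooled 20 cochleae of 10 mice. They were collected after 1 passage, with 4 to 5 days of culture on either side of it, and enriched for solid spheres by filtration. Their serum-free medium held N2 and B27 supplements, heparan sulfate, basic fibroblast growth factor at 10 ng/ml and mouse IGF1 itself at 50 ng/ml. The cochlear sensory epithelium dissected from mice of the same strain and age (CSE, 3 arrays) was not cultured. The mouse embryonic stem cells (ESCs, 2 arrays) were the lines G4-2 (ES1) and D3 (ES2) at passage 13, grown without feeders with leukemia inhibitory factor and 10% serum, so the ESC spread is that between a pair of lines. No group carried a drug treatment, and the groups differ in medium as well as in cell type.

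The arrays lay on 2 slides. Slide 1 held ES1, OS1 to OS3, CSE1 and CSE2, and slide 2 held ES2, OS4 to OS6 and CSE3. The share of spots well above background ran from 55.1% to 71.6% of an array and no spot was saturated. Arrays OS1 and OS2 differed by 0.819 times the spread between repeated spots of 1 array, and OS4 and OS5 by 0.353 times, against 1.32 to 2.97 times for the other pairs of a group. Each of these 2 pairs was therefore averaged and counted as 1 sample, which left 4 otosphere, 3 CSE and 2 ESC samples. The labels do not say that the remaining samples came from separate cultures, so p-values measure the spread between these samples. All values below are log2 normalized signals, and n is the number of samples. Differences are between group means, and adjusted p is from limma with Benjamini-Hochberg adjustment over the 47997 probes.

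Across the family, otospheres and CSE shared very bright Igfbp5 and a strong Igf1r signal, both far above ESCs, but differed in the clearance receptor Igf2r, which was 3.15-fold higher in otospheres. Igfbp6 was also higher in otospheres, by 3.19-fold, and Igfbp3 was 4.13-fold lower. Of the 10 genes, 2 rose and 1 fell from CSE to otospheres in limma (threshold 0.05 on the adjusted p), where 4.84% and 6.19% of all tested probes passed in these directions and 11.0% passed in either. Against ESCs, 4 of the 10 genes were higher in otospheres (the lowest of the other 6 differences was -0.36, for Igfbp2), beside 12.1% higher, 15.6% lower and 27.7% in either direction over all tested probes. CSE against ESCs gave 7 higher and 1 lower, beside 13.2%, 15.6% and 28.8%. The 3 comparisons share samples, and their values are given side by side. The median difference over the 10 genes was -0.48 for otospheres minus CSE and 1.31 for otospheres minus ESCs, where the medians over all tested probes were 0.02 and -0.03.

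**Figure D1:**
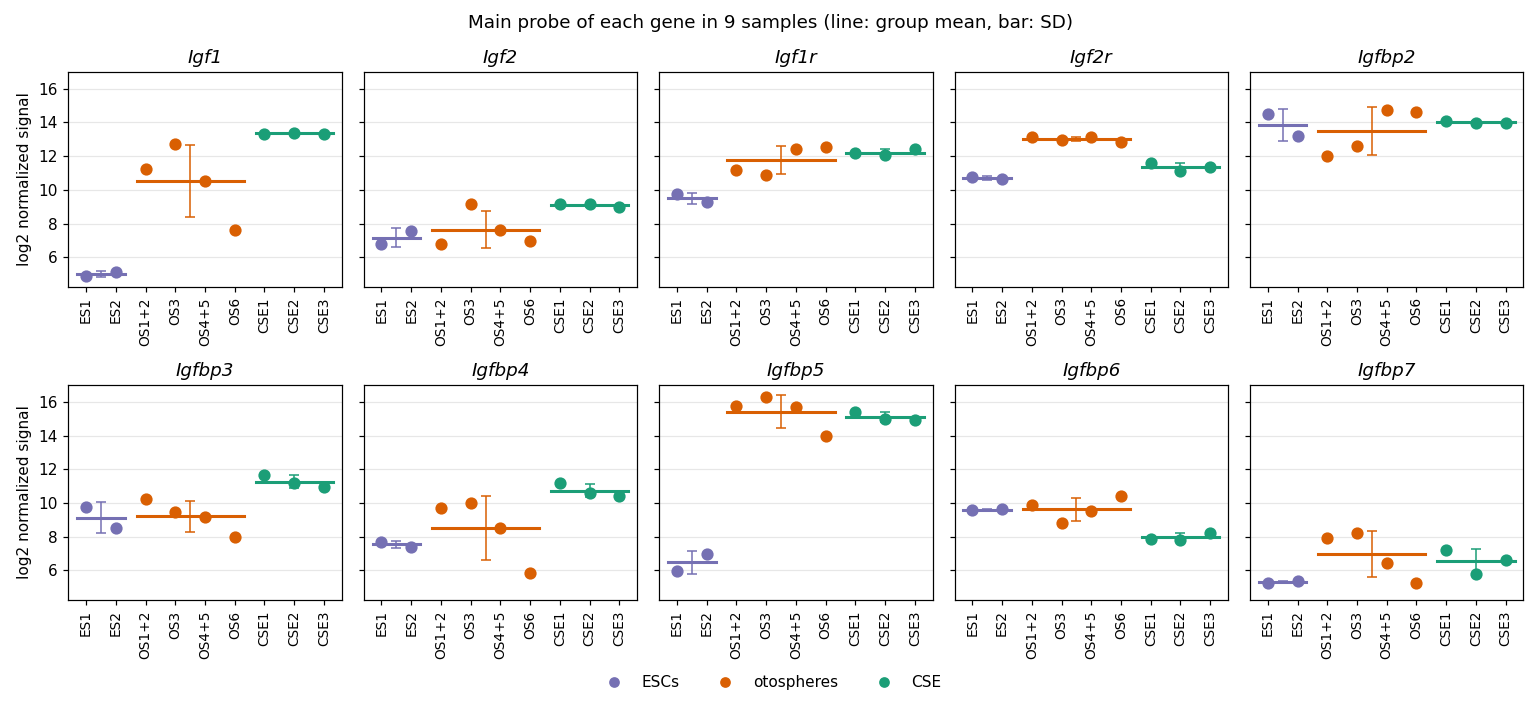
Log2 normalized signal (vertical axis) of the main probe of each gene in the 9 samples (horizontal axis), with 2 ESC, 4 otosphere and 3 CSE samples. Points are samples, lines are group means and bars are SDs. The 3 CSE points of Igf1 lie between 13.33 and 13.38, while its 4 otosphere points run from 7.61 to 12.69. Levels of different genes come from different probes and are not comparable.

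**Figure D2:**
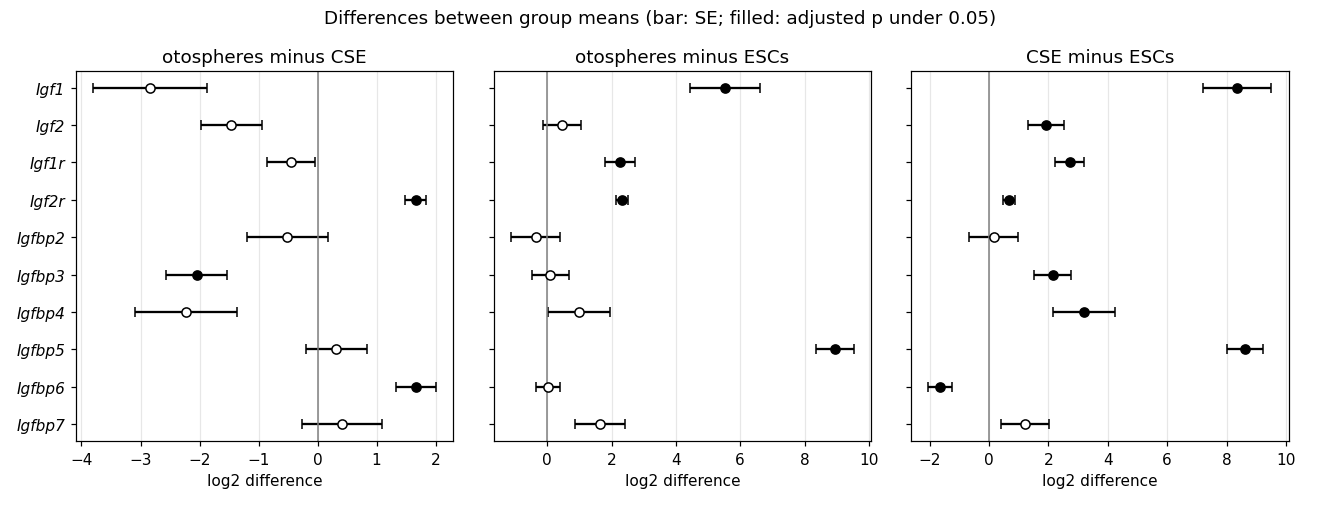
Log2 difference between group means (horizontal axis) for the 10 genes (rows) in the 3 comparisons, with the SE from limma as the bar. Filled points have an adjusted p under 0.05. Igf2r, Igfbp3 and Igfbp6 are filled in otospheres minus CSE. ESC signals of Igf1 and Igfbp7 were not well above background, so the plotted differences of these genes from ESCs depend on the background offset and are no bounds.

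The RefSeq table gave sequence before the transcription start for all 10 genes (GRCm38.p6). Stretches of 150 bases ending at the start are printed for the 3 genes that differed between otospheres and CSE and for Igfbp5, which was far above ESCs in both cochlear groups. For Igfbp3 the start in the RefSeq table lies inside the gene's annotated span, so its stretch precedes that start and not the outer end of the gene. Capitals mark matches, on either strand, to the TATA box (TATAAA), the GC box (GGGCGG), the CCAAT box (CCAAT) or the E box (CACGTG). The matches printed do not overlap one another.
Igf2r, chr17:12769707-12769856, - strand: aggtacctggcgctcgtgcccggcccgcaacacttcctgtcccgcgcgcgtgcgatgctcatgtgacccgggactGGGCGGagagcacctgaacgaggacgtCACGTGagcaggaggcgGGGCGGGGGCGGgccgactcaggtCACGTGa
Igfbp6, chr15:102144036-102144185, + strand: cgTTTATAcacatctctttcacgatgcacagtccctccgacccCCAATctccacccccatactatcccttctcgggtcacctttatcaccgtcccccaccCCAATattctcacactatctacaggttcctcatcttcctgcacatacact
Igfbp3, chr11:7213924-7214073, - strand: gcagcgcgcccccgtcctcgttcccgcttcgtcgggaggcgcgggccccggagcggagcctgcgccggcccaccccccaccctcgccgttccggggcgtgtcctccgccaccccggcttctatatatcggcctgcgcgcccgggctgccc
Igfbp5, chr1:72874866-72875015, - strand: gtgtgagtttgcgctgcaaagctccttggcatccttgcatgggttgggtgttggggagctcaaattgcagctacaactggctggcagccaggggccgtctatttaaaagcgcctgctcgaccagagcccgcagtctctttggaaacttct
The Igf2r stretch held the GC box at 3 places and the E box at 2. Over all 32851 stretches of this length in the table, 28.6% held a GC box and 4.3% an E box. The Igfbp6 stretch held the CCAAT box at 2 places, found in 24.5% of all stretches, and the TATA box on the opposite strand far from the start, found in 7.57%. None of the 4 motifs was in the Igfbp3 or the Igfbp5 stretch. Igfbp3 had 23 CG pairs there and Igf2r 19, more than 96.7% and 92.3% of all stretches, whereas Igfbp5 and Igfbp6 had 5 each, more than 54.3%. These matches describe the letters only.

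Igf1, the ligand that was also supplied in the otosphere medium, varied widely among otospheres. Its main probe (chr10:87858265-87937047, the gene's span) gave 11.23 in the mean of OS1 and OS2, 12.69 in OS3, 10.52 in the mean of OS4 and OS5 and 7.61 in OS6. CSE gave 13.34, 13.38 and 13.33. ESCs gave 4.88 and 5.11, where neither array was well above background. All 4 otosphere samples thus lay below all 3 CSE samples and above both ESC samples, and OS6 stood lowest among otospheres. Otospheres averaged 10.51 ± 2.14 (SD, n = 4), while CSE averaged 13.35 ± 0.03 (SD, n = 3). The difference of -2.84 (SE 0.96) did not pass the threshold (limma adjusted p = 0.106), and it was -1.40 within slide 1 and -4.27 within slide 2. It passed with OS3 left out (-3.57, limma adjusted p = 0.0279) and, barely, with OS6 left out (-1.87, limma adjusted p = 0.0499).

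By its main probe, Igf1 was at least 35.0-fold higher in otospheres than in ESCs (limma adjusted p = 0.00509) and at least 251-fold higher in CSE (limma adjusted p = 7.51e-04). These bounds set the group mean against the lowest signal that was well above background on the ESC arrays, or against the Igf1 signal itself on an array where it was the higher of the pair. The other 3 Igf1 probes ran the same way. Their otospheres minus CSE differences were -1.69, -1.12 and -1.72 (limma adjusted p = 0.215, 0.162 and 0.192), each with OS3 just above the CSE range. Their otospheres minus ESCs differences were 3.98, 1.60 and 3.79 and all passed (limma adjusted p = 0.00672, 0.0395 and 0.00731). These were 15.8-, 3.04- and 13.9-fold, and CSE was 51-, 6.59- and 45.7-fold above ESCs, all under the bounds of the main probe. The 3 probes were well above background on 1, 2 and 1 of the 2 ESC arrays.

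Igf2, the fetal ligand and an imprinted gene (chr7:142650768-142666816), was 9.14, 9.14 and 8.98 in CSE and 6.79 and 7.55 in ESCs. Otospheres gave 6.78 in OS1 and OS2, 9.17 in OS3, 7.60 in OS4 and OS5 and 6.94 in OS6. OS3 alone was at the CSE level, so the groups overlapped, and the other 3 otosphere samples lay in or near the ESC range. Otospheres minus CSE was -1.46 (SE 0.52, limma adjusted p = 0.125), -1.17 within slide 1 and -1.71 within slide 2. Without OS3 it was -1.98 with a limma adjusted p = 0.00414. Otospheres minus ESCs was 0.46 (SE 0.59, limma adjusted p = 0.63). CSE exceeded ESCs by 1.92 (limma adjusted p = 0.0475), a call that was lost in 12 of the 21 alternative settings tested, among them the slide as a block (1.89, limma adjusted p = 0.0671), offset 50 (1.69, limma adjusted p = 0.0571), no filter on dim probes (limma adjusted p = 0.0561) and either ESC line or any CSE sample left out.

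Igf1r, the signalling receptor (chr7:67952257-68233668), was higher in both cochlear groups than in ESCs. ESCs gave 9.73 and 9.26, CSE gave 12.17, 12.04 and 12.42, and otospheres gave 11.18 in OS1 and OS2, 10.89 in OS3, 12.44 in OS4 and OS5 and 12.53 in OS6. Every otosphere and CSE sample was above both ESC samples. The difference was 2.27 for otospheres (SE 0.47, 4.81-fold, limma adjusted p = 0.0063) and 2.72 for CSE (SE 0.49, 6.58-fold, limma adjusted p = 0.00324). Without ES2 the first missed the threshold (2.03, limma adjusted p = 0.0507). Otospheres minus CSE was -0.45 (SE 0.41, limma adjusted p = 0.649). The samples of slide 1 were below CSE and those of slide 2 just above it, with differences of -1.07 within slide 1 and 0.06 within slide 2.

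Igf2r, the receptor that removes Igf2 from the cell surface and delivers lysosomal enzymes (chr17:12682406-12769706), differed between all 3 groups with little spread. Otospheres gave 13.12 in OS1 and OS2, 12.95 in OS3, 13.15 in OS4 and OS5 and 12.86 in OS6. CSE gave 11.61, 11.12 and 11.35, and ESCs gave 10.76 and 10.64. The groups did not overlap and ran otospheres, CSE, ESCs from highest to lowest. Otospheres exceeded CSE by 1.66 (SE 0.17, 3.15-fold, limma adjusted p = 5.25e-04), by 1.67 within slide 1 and 1.65 within slide 2. Otospheres exceeded ESCs by 2.32 (SE 0.19, 4.98-fold, limma adjusted p = 4.96e-05). CSE minus ESCs was 0.66 (limma adjusted p = 0.0358), a call lost in 10 of the 21 alternatives, and scaling to the 75th percentile reduced it to 0.27 (limma adjusted p = 0.595). Its probe is spotted 10 times on the array, so each value is a mean over up to 10 spots. Its promoter stretch is the one above with both E box matches.

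The series' own deposited table of log2 values holds another scale for this probe. There Igf2r ran from 1.07 to 1.33 over the 11 arrays, where the scanner files gave 10.64 to 13.16. Over bright probes (mean log2 signal over 10), the deposited value divided by the scanner value had a median of 1.01 for the 10106 probes spotted once, 0.502 for the 12 spotted 2 times and 0.1 for the 136 spotted 10 times. Of the 10 genes, Igf2r (ratio 0.101) and Igf1, whose main probe is spotted 2 times (ratio 0.487), were the ones off the scale of 1, and the other 8 had ratios of 0.949 to 1.01. In the deposited table as it stands, Igf2r in otospheres minus CSE was 0.17 (limma adjusted p = 0.645) and in otospheres minus ESCs 0.24 (limma adjusted p = 0.363). Multiplied by the spots per probe, it was 1.65 (limma adjusted p = 0.00141) and 2.41 (limma adjusted p = 1.27e-04).

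**Figure D3:**
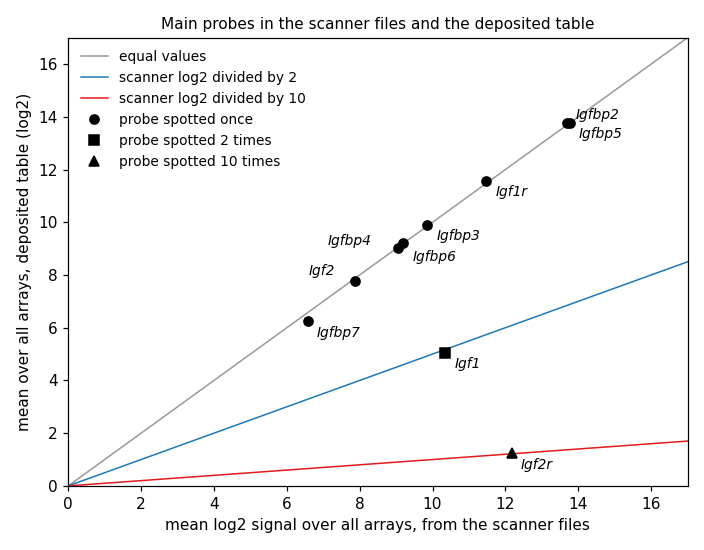
Mean value in the deposited log2 table (vertical axis) against the mean log2 signal computed from the scanner files (horizontal axis), over the 11 arrays, for the main probe of each of the 10 genes. Circles are probes spotted once, the square 2 times and the triangle 10 times; lines show equal values and the scanner value divided by 2 and by 10. Igf1 lies at 5.04 against 10.35 and Igf2r at 1.23 against 12.17, while the other 8 lie near the line of equal values.

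Igfbp5, a matrix-associated binding protein (chr1:72858065-72874865), gave 15.76 in OS1 and OS2, 16.26 in OS3, 15.72 in OS4 and OS5 and 13.97 in OS6. CSE gave 15.42, 15.00 and 14.90, and ESCs gave 5.98 and 6.97. Otospheres exceeded ESCs by 8.95 (SE 0.58, 495-fold, limma adjusted p = 1.53e-05) and CSE by 8.63 (SE 0.61, 397-fold, limma adjusted p = 2.39e-05), with no sample near the ESC range. Otospheres and CSE overlapped and differed by 0.32 (SE 0.51, limma adjusted p = 0.835), by 0.80 within slide 1 and -0.06 within slide 2. Both ESC arrays were well above background for this probe, so the fold is measured on both sides.

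Igfbp2, a binding protein of fetal tissues, lies next to Igfbp5 on the same chromosome (chr1:72824480-72852474) and showed no difference between groups past the threshold (limma F-test adjusted p = 0.835, where 33.8% of all tested probes passed). It gave 11.99 in OS1 and OS2, 12.60 in OS3, 14.75 in OS4 and OS5 and 14.63 in OS6. CSE gave 14.09, 13.94 and 13.99, and ESCs gave 14.51 and 13.20. The otospheres of slide 1 were below every CSE sample and those of slide 2 above every one. Otospheres minus CSE was -0.51 (SE 0.68), but -1.72 within slide 1 and 0.70 within slide 2. The second probe gave the same picture, with -1.73 and 0.69. With every array separate and the replicate number as a block, the difference became -1.81 (limma adjusted p = 0.0196). No CSE array carries the numbers of OS4 to OS6, so that value rests on the slide 1 otospheres alone. It also counts OS1 and OS2 as separate samples.

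Igfbp3, the main carrier of IGF in serum (chr11:7206086-7215498), was lower in otospheres than in CSE. CSE gave 11.69, 11.16 and 10.95, and otospheres gave 10.22 in OS1 and OS2, 9.49 in OS3, 9.18 in OS4 and OS5 and 8.01 in OS6. ESCs gave 9.77 and 8.49, inside the otosphere range. All otosphere samples were below all CSE samples, with a difference of -2.05 (SE 0.51, limma adjusted p = 0.0338), -1.58 within slide 1 and -2.36 within slide 2. Otospheres minus ESCs was 0.10 (SE 0.58, limma adjusted p = 0.928) and CSE exceeded ESCs by 2.14 (limma adjusted p = 0.0273, a call lost in 5 of the 21 alternatives). The otospheres minus CSE call was lost with scaling to the 75th percentile (limma adjusted p = 0.0786). It was also lost without OS3 (limma adjusted p = 0.0518), without OS4 and OS5 (0.0846) and without CSE1, CSE2 or CSE3 (0.137, 0.0813 and 0.0808), and in the model without moderation (0.109).

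Igfbp6, which binds Igf2 in preference to Igf1 (chr15:102144186-102149512), ran the other way. Otospheres gave 9.86 in OS1 and OS2, 8.79 in OS3, 9.50 in OS4 and OS5 and 10.41 in OS6, and ESCs gave 9.60 and 9.62. CSE gave 7.89, 7.80 and 8.21, below every sample of the other groups. Otospheres exceeded CSE by 1.67 (SE 0.34, 3.19-fold, limma adjusted p = 0.0141), by 1.48 within slide 1 and 1.75 within slide 2. CSE was below ESCs by the difference of -1.64 (limma adjusted p = 0.0146), whereas otospheres minus ESCs was 0.03 (SE 0.38, limma adjusted p = 0.965). The otospheres minus CSE call was lost without CSE1 (limma adjusted p = 0.0623) or CSE2 (limma adjusted p = 0.0516), where the difference was 1.64 and 1.59, and in the model without moderation (adjusted p = 0.057).

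Igfbp4, a secreted inhibitor of IGF action (chr11:99040005-99052655), gave 11.18, 10.61 and 10.43 in CSE. Otospheres gave 9.70 in OS1 and OS2, 9.97 in OS3, 8.53 in OS4 and OS5 and 5.86 in OS6, the last below the ESC values of 7.69 and 7.39. All otospheres were below all CSE samples, but the spread among otospheres was wide (8.52 ± 1.88, SD, n = 4) and the difference of -2.23 (SE 0.86) did not pass (limma adjusted p = 0.158). It was -1.06 within slide 1 and -3.23 within slide 2. Otospheres minus ESCs was 0.98 (limma adjusted p = 0.52), and 1.86 without OS6 (limma adjusted p = 0.0148). CSE exceeded ESCs by 3.20 (limma adjusted p = 0.0451), a call lost in 12 of the 21 alternatives, among them offset 0 (limma adjusted p = 0.0507), scaling to the 75th percentile (0.0781), the deposited table (0.0562), no filter on dim probes (0.0543) and either ESC line or any CSE sample left out.

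Igfbp7, a low-affinity relative of the family (chr5:77349240-77408045), was dim throughout. It gave 7.93 in OS1 and OS2, 8.23 in OS3, 6.42 in OS4 and OS5 and 5.26 in OS6, the last not well above background. CSE gave 7.21, 5.79 and 6.60, and ESCs gave 5.28 and 5.36, neither well above background. Otospheres and CSE overlapped (0.42, SE 0.68, limma adjusted p = 0.836), with 1.58 within slide 1 and -0.76 within slide 2. Otospheres also overlapped ESCs, since OS6 was below both ESC values, and their difference of 1.64 (limma adjusted p = 0.158) is no bound. CSE was at least 2.19-fold above ESCs, which did not pass (limma adjusted p = 0.321). Without OS6, otospheres minus ESCs was 2.20 with a limma adjusted p = 0.0241.

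Over the main probes of the 10 genes, otosphere and CSE samples did not overlap for 5 (Igf1, Igf2r, Igfbp3, Igfbp4 and Igfbp6), beside 23.4% of all tested probes. By the other Igf1 probes the 2 groups did overlap, through OS3. The otosphere samples themselves fell along 2 patterns. Igf1, Igfbp4, Igfbp5 and Igfbp7 were highest in OS3 and lowest in OS6. Igf1r and Igfbp2 were higher in the slide 2 otospheres. Igf2r hardly varied, with an SD of 0.14 among otospheres. Igf2, Igfbp3 and Igfbp6 followed neither pattern. Igf2 was highest in OS3 but lowest in OS1 and OS2, and Igfbp3 was lowest in OS6 but highest in OS1 and OS2. Igfbp6 ran opposite to the first pattern, lowest in OS3 and highest in OS6.

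The mean of 12 markers of mesenchyme, which lies beneath the sensory epithelium, moved with the first pattern. Relative to CSE it was -0.48 in OS1 and OS2, 0.03 in OS3, -1.48 in OS4 and OS5 and -3.81 in OS6. Mesenchyme was not alone in this, since the mean of 8 endothelial markers was also highest in OS3 and lowest in OS6. The means of 6 proliferation and 7 glial markers were lowest in OS6 too, though highest in OS1 and OS2. Centred on all 9 samples, the endothelial mean was -0.81, -0.65, -0.99 and -1.62 in the same order of samples. The proliferation mean was 0.88, -0.22, -1.16 and -2.61, and the glial mean 0.29, -0.32, -0.81 and -1.02. Of the 12 mesenchyme markers, 8 were both highest in OS3 and lowest in OS6. The exceptions were Thy1 (11.10 in OS3 and 12.76 in OS6) and Lum (14.39 and 15.05), which were lowest in OS3, Dcn, which was lowest in OS4 and OS5, and Emilin2, which was highest in OS1 and OS2. All 12 markers were well above background on some array of otospheres and of CSE, and in ESCs Pou3f4, Tbx18 and Lum were not. Their summed linear signal was 88509 to 272965 in otospheres, 203976 to 308816 in CSE and 4452 to 6347 in ESCs. Of the 12, Col1a1 was lower in otospheres than in CSE (-4.01, limma adjusted p = 0.014), Thy1 was higher (3.12, limma adjusted p = 0.00709), and 10 did not pass. The part of mesenchyme, endothelial, glial or dividing cells in the Igf1, Igfbp3, Igfbp4, Igfbp5 and Igfbp7 values was not tested. In such bulk RNA, fewer cells of a type and less RNA per cell cannot be told apart.

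Of the 8 hair cell markers, 4 were lower in otospheres than in CSE, beside the 6.19% of all probes that were lower, and their summed signal was 2180 to 8646 in otospheres against 21333 to 23755 in CSE, with the 2 highest otosphere sums in the slide 2 samples that also had the higher Igf1r and Igfbp2. Supporting cells are the other main cell type of the epithelium, and 6 of their 8 markers were lower in otospheres than in CSE (median difference of the 8, -2.63). Their summed signal was also higher in the slide 2 otospheres (43967 and 37534) than in those of slide 1 (19175 and 26108). Among markers of other tissues, 5 of 8 endothelial, 5 of 6 neuronal, 5 of 7 glial, 4 of 7 macrophage and 5 of 7 erythroid genes were below CSE in limma. In the glial list Mbp, a myelin protein, was higher in otospheres (1.90, limma adjusted p = 0.0155). The erythroid sum was 343 to 504 in otospheres and 125368 to 257668 in CSE. The part of these cells in the lower Igfbp3 and the higher Igf2r and Igfbp6 of otospheres was not tested. Nor was their part in the higher Igf1r and Igfbp2 of the slide 2 otospheres. ESC arrays carried most of the pluripotent markers, with a summed signal of 266944 to 291165 against 973 to 2405 in otospheres. Of the 8 markers, 7 were lower in otospheres than in ESCs in limma, beside the 15.6% of all probes that were lower. The exception was Nanog, whose main probe gave 8.50 and 8.26 in ESCs and 8.82 to 10.75 in otospheres (1.44, limma adjusted p = 0.105). That probe gave 9.41, 10.34 and 10.34 in CSE, and no other Nanog probe was examined. The study itself lists Nanog among the genes high only in ESCs and detected no NANOG protein in otospheres.

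**Figure D4:**
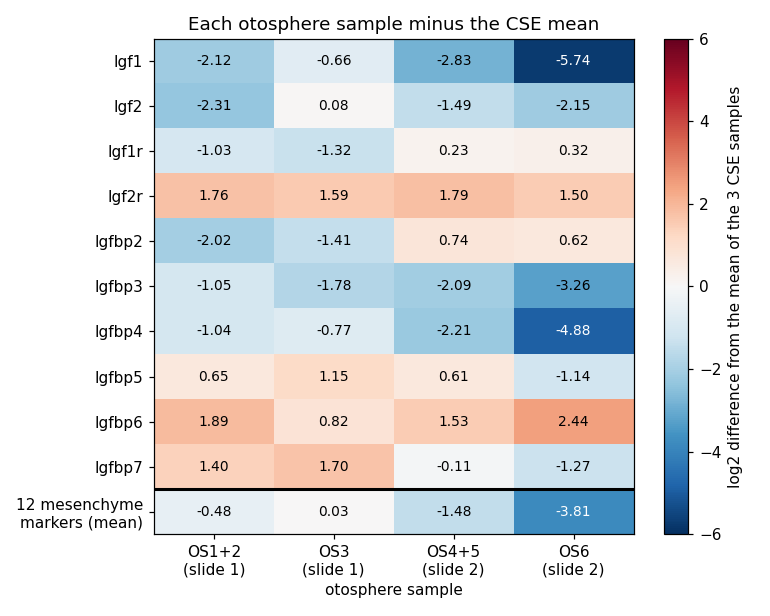
Log2 difference of each otosphere sample (columns) from the mean of the 3 CSE samples, for the 10 genes and for the mean of 12 mesenchyme markers (rows). Igf2r is above the CSE mean by 1.50 to 1.79 in all 4 columns. Igf1 and Igfbp4 reach -5.74 and -4.88 in OS6, where the markers are at -3.81.

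For the 6 of the 10 genes whose group means spanned over 2 log2 units, the genes with the most similar signals were found by Pearson's r over the 9 samples, among 4580 genes of such a span. Igf2, Igfbp2, Igfbp6 and Igfbp7 had smaller spans and were left out. With 3 groups set so far apart, high r is common and is no finding. Igf1 ran most like Foxc1 (r = 0.993), Robo2 and Selenop, and Igfbp4 most like Col1a2 (r = 0.991), Pcdh18 and Fbn1. Igf2r ran most like Serpinb1a (r = 0.992), Mal2 and Ifih1. Igf1r ran most like Ccdc148 (r = 0.995), Cd83 and Gm10638, Igfbp5 most like Mcc (r = 0.996), Jak2 and Mindy2, and Igfbp3 most like Adgrb3 (r = 0.984), Cntfr and Qpct.

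Around these 10 genes, 49 of 50 listed pathway genes were measured, H19 being the one without a named probe bright enough to be tested. Between otospheres and CSE, 6 rose and 3 fell in limma, against the 11.0% of all probes given above, and the median difference over the list was 0.02. Of the 11 other binding proteins, proteases and protease inhibitors, 3 rose and 2 fell, of the 6 other ligands and receptors 1 rose, and of the 22 genes of the PI3K, AKT and mTOR list 2 rose and 1 fell. The 3 measured regulators of Igf2 RNA did not pass, nor did the 7 adaptors, which gave -0.35 to 0.48 with limma adjusted p of 0.483 or more. Of the 9 calls, those of M6pr, Igfbpl1 and Ctsd held in all 21 alternatives. Those of Stc2 and Eif4ebp1 were each lost in 3, and those of Pappa2 and Pik3cb each in 5.

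Among the extracellular regulators, Stc2, an inhibitor of the Pappa proteases that cut Igfbp4 and Igfbp5, was 9.29, 8.15, 10.54 and 11.17 in the 4 otosphere samples and 6.72, 6.07 and 6.91 in CSE. All otospheres lay above all CSE samples, and it rose by 3.22 (SE 0.66, limma adjusted p = 0.0149). Pappa2, a protease of this kind, was 9.63, 9.44, 8.78 and 7.50 in otospheres and 11.08, 10.39 and 11.35 in CSE, with no overlap, and fell by 2.10 (limma adjusted p = 0.0247). Averaged over all its tested probes, Pappa2 fell by less (-1.08, limma adjusted p = 0.0385). Pappa itself gave -0.80 (limma adjusted p = 0.274). Ctsd, a lysosomal protease that mannose 6-phosphate receptors such as Igf2r sort, was 16.80, 16.71, 17.12 and 16.96 in otospheres against 15.14, 14.76 and 15.20 in CSE, and rose by 1.87 (SE 0.19, limma adjusted p = 6.00e-04). M6pr, the smaller receptor of the same enzymes, rose by 1.06 (limma adjusted p = 0.00377), but unlike Igf2r was lower in otospheres than in ESCs (-1.20, limma adjusted p = 0.00139). Adamts1, a secreted protease, rose by 1.47 (limma adjusted p = 0.0439), but its call was lost in 10 of the 21 alternatives, among them the slide as a block (limma adjusted p = 0.0556), offset 50 (0.0516) and no filter on dim probes (0.0506). Igfbpl1, a binding-protein-like gene, fell by 3.59 (limma adjusted p = 1.07e-04) to a level well above background on only 2 of 6 otosphere arrays.

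Within the cell, Eif4ebp1, the translation repressor that mTOR inactivates, rose by 2.80 (SE 0.58, limma adjusted p = 0.015), with otospheres at 13.60, 11.97, 14.42 and 14.53 and CSE at 11.03, 10.22 and 11.23. ESCs were higher still, at 15.17 and 15.18. Pik3cb, a catalytic subunit of PI3 kinase, rose by 1.49 (limma adjusted p = 0.0178), and Foxo1, a transcription factor that AKT keeps out of the nucleus, fell by 0.74 (limma adjusted p = 0.0447). The Foxo1 call was lost in 14 of the 21 alternatives, among them offset 0 (limma adjusted p = 0.0763), scaling to the 75th percentile (0.305), the deposited table (0.065) and the slide as a block (0.0565). The other 19 genes of the PI3K, AKT and mTOR list did not pass between otospheres and CSE. Among its brightest genes, Akt1 gave -0.07 (limma adjusted p = 0.92), Akt2 gave 0.08 (limma adjusted p = 0.871) and Gsk3b gave -0.19 (limma adjusted p = 0.649). The adaptors Irs2, Shc1 and Grb14 gave -0.04, -0.23 and -0.35 (limma adjusted p = 0.989, 0.865 and 0.537).

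The count of 9 pathway genes for otospheres minus CSE depended on single samples. It was 3 without CSE1, 4 without CSE2, 5 without CSE3, 5 without OS4 and OS5, and 10 without ES1, ES2 or OS3.

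Against ESCs, 18 pathway genes rose and 8 fell in otospheres, and 16 rose and 9 fell in CSE, out of 49. Over all probes 12.1% were higher and 15.6% lower in the first comparison, and 13.2% and 15.6% in the second. Irs1, an adaptor of both the insulin and the IGF receptor, exceeded ESCs by 2.79 in otospheres and 3.12 in CSE (limma adjusted p = 8.3e-05 and 6.15e-05). Insr, the insulin receptor, exceeded them by 1.89 and 1.57 (limma adjusted p = 0.0046 and 0.0143). Igf2bp1, an RNA-binding protein that acts on Igf2 transcripts, was 13.02 and 13.45 in ESCs, 7.42 to 8.94 in otospheres and 6.98 to 7.22 in CSE, and was lower in otospheres than in ESCs by the difference of -5.00 (limma adjusted p = 2.65e-05). Igf2bp3 was also lower (-1.64, limma adjusted p = 0.00332), and Igf2bp2 gave 0.27 (limma adjusted p = 0.387).

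Of 14 genes known as Foxo targets, 3 rose and 1 fell in otospheres against CSE, beside 4.84% and 6.19% of all probes. Bcl6, a transcriptional repressor, was 11.79, 12.39, 11.34 and 11.13 in otospheres and 8.45, 6.76 and 8.00 in CSE, and rose by 3.93 (SE 0.47, limma adjusted p = 0.00123). Pdk4, which restrains pyruvate oxidation, rose by 2.98 (limma adjusted p = 0.0024), and Trim63, a ubiquitin ligase, by 1.26 (limma adjusted p = 0.0259). Sesn1, a stress-induced inhibitor of mTOR signalling, fell by 1.56 (limma adjusted p = 0.0068). The Trim63 call was lost in 5 of the 21 alternatives, while those of Bcl6, Pdk4 and Sesn1 held in all. The other 10 did not pass. Among the brightest of these, Sod2 gave 0.88 (limma adjusted p = 0.0807), Cdkn1b gave -0.56 (limma adjusted p = 0.21) and Txnip gave -1.10 (limma adjusted p = 0.423).

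**Figure D5:**
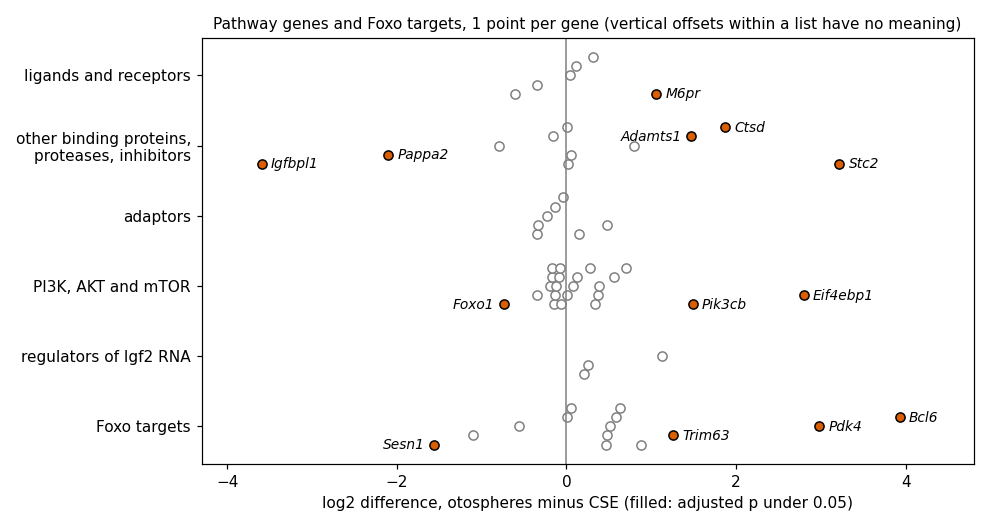
Log2 difference between otospheres and CSE (horizontal axis) for 49 pathway genes and 14 Foxo targets, 1 point per gene, grouped by list (rows). Filled, named points have an adjusted p under 0.05 in limma. Most points lie near 0, and the named ones run from -3.59 (Igfbpl1) to 3.93 (Bcl6).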

How the data were processed

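The authors deposited single-colour Agilent scanner files (Feature Extraction 10.7.3.1), whose spot intensity and local background values are not normalized, and a table of normalized log2 values, which was used here as an alternative only. From the deposited intensities, median signals were background-corrected (normexp, offset 16), log2-transformed and quantile-normalized. The study's methods name limma background correction and quantile normalization without a method or offset, so normexp and the offset were chosen here. Outlier spots were left out and spots of a probe averaged. Probes at least 10% over the 95th percentile of negative controls on 2 or more arrays, the size of the ESC group, were kept (47997 of 55681; the study's methods ask for 3, tried as an alternative), and 27405 probes had a gene name through RefSeq accessions (GRCm38.p6). Groups came from the sample labels. limma 3.58.1 (R 4.3.3) fitted 3 group means to 9 samples, with Benjamini-Hochberg adjustment over all kept probes and a threshold of 0.05, and was tested on simulated data. The number of arrays limits the precision.

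The genes and lists were chosen with earlier results of these data known. Named are all 10 genes, pathway genes past the threshold with a difference over 1, up to 3 of the brightest per list, and the 3 genes most like each of the 6 members of wide span; Foxo1, Irs1 and Pappa were added after their values were seen. The alternatives were the offset, the scaling, the deposited table, the filter, the averaging, the slide, the replicate block, leaving out samples, a model without moderation and the mean over probes.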

Additional observations from a re-analysis of the deposited data

Results flagged for a closer look

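Otospheres minus CSE had opposite signs on the 2 slides for 3 genes. Every otosphere sample of 1 slide was on one side of the CSE samples of that slide. Every one of the other slide was on the other side. The difference on slide 2 minus that on slide 1 was 1.13 for Igf1r (SE 0.31), 2.42 for Igfbp2 (SE 0.40) and -2.33 for Igfbp7 (SE 0.90). For Igfbp2 the difference itself was -1.72 on slide 1 and 0.70 on slide 2, for Igf1r -1.07 and 0.06, and for Igfbp7 1.58 and -0.76. The 0.06 of Igf1r was under the SD between repeated spots on the otosphere and CSE arrays of slide 2 (0.137 to 0.162). For Igf1r, slide 2 thus showed no clear direction. A limma test of the interaction, chosen after the values were seen, gave adjusted p = 0.701 for Igfbp2, 0.791 for Igf1r and 0.813 for Igfbp7. Over all 47995 probes with an estimate it called 0, with 2914 at an unadjusted p under 0.05. Slide 2 held 1 CSE array, so its own spread there is unknown, and whether the slide or the otosphere preparations carry the difference cannot be told apart.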

How the results depend on the processing

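Otospheres minus CSE gave 3 genes of the 10, and this count became 5 with every array separate and 1 in the model without moderation. The replicate numbers of the labels did not pair the arrays, since same-numbered otosphere and CSE arrays deviated from their group means with correlations of 0.356, -0.341 and -0.393. With every array separate and the numbers as a replicate block (chosen after seeing the data, since an averaged sample carries 2 numbers), 7 genes passed in otospheres minus CSE and 7 in otospheres minus ESCs. No CSE or ESC array carries the numbers of OS4 to OS6, so these otospheres added nothing to the differences of that fit. No ESC array carries the number of OS3, and OS1 and OS2 were counted as separate samples. Its counts thus describe the slide 1 otospheres and not the same comparison. CSE minus ESCs fell from 8 genes to 4 with scaling to the 75th percentile and to 5 without moderation, and the pathway count for otospheres minus CSE fell from 9 to 3 without moderation. Leaving out each sample in turn gave 1 to 4 genes for otospheres minus CSE (1 without CSE1 or CSE2), 3 to 6 for otospheres minus ESCs, 3 to 8 for CSE minus ESCs (3 without ES2), and 3 to 10 pathway genes for otospheres minus CSE. With the slide as a block, the CSE minus ESCs difference of Igf2 was the one call of the 10 genes to change. Where 1 ESC sample was left, it was assumed to vary like the other groups.

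Sign changes were limited to differences that did not pass the threshold. With scaling to the 75th percentile, Igfbp6 in otospheres minus ESCs became -0.03 and Igfbp2 in CSE minus ESCs became -0.83. With samples left out, otospheres minus ESCs ran from -0.06 to 0.84 for Igf2, from -1.02 to 0.29 for Igfbp2 (0.14 without OS1 and OS2), from -0.55 to 0.74 for Igfbp3 (-0.24 without OS1 and OS2) and from -0.23 to 0.32 for Igfbp6 (-0.04 without OS1 and OS2). CSE minus ESCs ran from -0.5 to 0.81 for Igfbp2. The pathway count without OS4 and OS5 was 5, and so was the CSE minus ESCs count of the 10 genes. Over the 21 alternatives, the 3 genes called in otospheres minus CSE kept their call in 52 of 63 results, the 4 called in otospheres minus ESCs in 82 of 84 and the 8 called in CSE minus ESCs in 127 of 168, all with the direction unchanged. The causes were not tested, except that fewer samples were fitted where one was left out. Signals of Igf1 and Igfbp7 in ESCs were not well above background, so their fitted differences from ESCs depend on the offset.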
